A study of Mus musculus with 20 samples.

Results

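Pecam1, Cdh5, Esam, Vwf, Tek, Tie1, Kdr, Flt1 and Eng are genes of blood vessel endothelium, and Vegfa encodes the growth factor that acts on 2 of their products. The 10 genes were chosen by name, with earlier results of these data known. All probe sets whose platform annotation gives 1 of these symbols were taken. They have 16 of the 45101 probe sets of the array: Flt1 has 4, Cdh5, Eng and Vegfa have 2 each, and the others have 1 each. Every gene has at least 1 probe set that was tested, and 15 of the 16 probe sets passed the filter on low values. The exception is a probe set of Flt1.

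Total RNA of whole mouse testis was hybridised to 20 one-colour expression arrays. There were 2 arrays for each of 10 ages after birth, from day 0 through days 3, 6 and 8, then days 10 and 14, days 18 and 20, and last days 30 and 35. All are untreated testes of a developmental series. The strain and genotype, and whether the replicates of a day came from separate animals, are not given in the sources used here, so the p-values reflect the variation among these arrays only, which may be technical. The array titled as day 18 replicate 2 names day 0 in another label. It correlated with day 18 replicate 1 at r = 0.958 across probe sets and with the arrays of day 0 at 0.786 or less, and it was kept as day 18.

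Vessels of the testis run in the interstitium between the tubules, and the tubules themselves hold none. VEGF-A, the product of Vegfa, binds the receptor kinases VEGFR2 (Kdr) and VEGFR1 (Flt1). VEGFR2 carries the main signal for endothelial growth, and VEGFR1 binds the ligand more tightly and acts largely as a trap. Tek (TIE2) is the angiopoietin receptor and Tie1 its partner kinase. Eng (endoglin) is a co-receptor for TGF beta family ligands. Cdh5 (VE-cadherin), Pecam1 (CD31) and Esam join endothelial cells to each other, and Vwf (von Willebrand factor) is stored in them and captures platelets.

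The values are probe set intensities on a linear scale with the same trimmed mean on all arrays. Differences below are log2 differences with their standard error (SE), later day minus earlier day, from a model across 37292 probe sets, and were called at a Benjamini-Hochberg adjusted p under 0.05 (limma) with a change of at least 2-fold. Each gene is described by its probe set with the highest mean, and its other probe sets are given beside it. Levels are log2(intensity + 7.84). Whole testis was measured, so fewer endothelial cells among all cells and less RNA per endothelial cell cannot be told apart. The lowest values of the arrays stepped up within the series: the 5th percentile of intensity was 3.46 to 5.54 on the 8 arrays of days 18 to 35, against 0.883 to 1.23 on the 12 arrays of days 0 to 14. The 40th percentile, below which a value is treated here as low, was 24.3 to 30.3 on the later arrays, against 16.7 to 20.3 on the earlier ones. The part of this step in differences that span days 14 to 18 was not tested.

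Of the 9 endothelial genes, 8 had their highest day mean on day 0, and Vegfa had its lowest means on days 30 and 35. Of the 10 genes, 8 were lower on day 35 than on day 0 and none was higher. Tie1 is the least firm of the 8: its call ended without day 35 replicate 1 or either array of day 0, which leaves 7. Over all probe sets tested, 28.1% were called lower and 22.9% higher in that comparison. The median log2 difference was -1.96 for the 10 genes and -0.13 over all probe sets. Kdr and Flt1, the VEGF-A receptors, are the 2 genes that did not pass. For Flt1 this holds for the probe set with the highest mean. Its 2 other tested probe sets were called lower (-1.29 and -2.35). Over the whole time course 8 of the 10 genes passed, all but Tie1 and Flt1, where 73.1% of all probe sets passed (limma's moderated F test, with the highest and lowest day mean differing 2-fold or more). The 2 other tested Flt1 probe sets passed it too.

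The summed intensity of the 9 endothelial genes averaged 1030 ± 96.5 on day 0 (SD, n = 2 arrays a day throughout), 614 ± 45.7 on day 8, 464 ± 28.8 on day 14, 262 ± 32.9 on day 20, 307 ± 20.1 on day 30 and 248 ± 40.2 on day 35. The number of the 10 genes above the 40th percentile on both arrays of a day was 9 on day 0, 10 on day 10, 8 on day 14, 4 on day 18 and 3 on days 30 and 35. On days 18, 30 and 35 most of these genes were therefore not above this cutoff on both arrays. The cutoff itself was higher on days 18 to 35 (24.3 to 30.3) than on days 0 to 14 (16.7 to 20.3). The part of its rise in these counts was not tested.

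**Figure D1:**
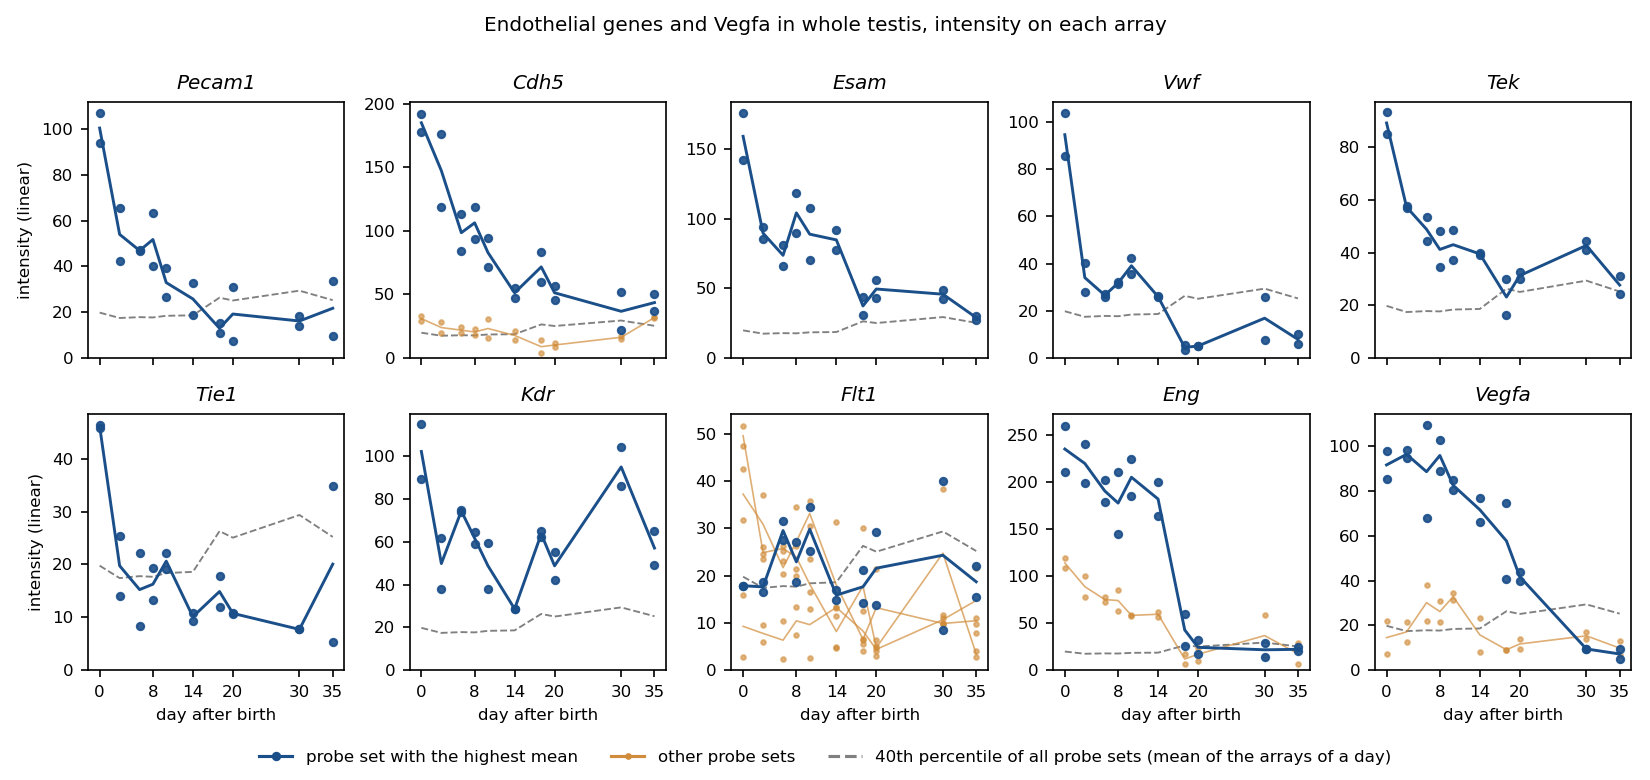
Intensity (linear, y axis) of each gene against day after birth (x axis). Each point is 1 array and lines join day means; blue is the probe set with the highest mean, orange the other probe sets, and the dashed line the 40th percentile of all probe sets. Eng has a mean of 42.8 on day 18, against 182 on day 14, Vegfa has 9.43 on day 30, against 41.7 on day 20, and Kdr has 95.1 on day 30, against its lowest mean, 28.6, on day 14.

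Eng had the largest log2 difference on day 35 against day 0, and most of it lay between 2 neighbouring ages. That rank depends on the added constant: with the 5th percentile in its place the differences were -3.32 for Eng, -3.44 for Vegfa and -3.38 for Vwf. Eng had 211 and 260 on day 0, 199 and 241 on day 3, 180 and 202 on day 6, 145 and 211 on day 8, 225 and 186 on day 10, and 164 and 200 on day 14. They had 60.1 and 25.4 on day 18, 16.6 and 31.8 on day 20, 14.0 and 29.3 on day 30, and 20.1 and 24.1 on day 35. Every array up to day 14 was thus above every later one. Eng lay below the 40th percentile on all arrays of days 30 and 35. It also did on day 18 replicate 2 and day 20 replicate 1, so its late levels are low values. On day 18 Eng averaged 42.8, against 182 on day 14, a difference of -1.99 ± 0.31 (limma adjusted p = 4.88e-05), where 5.15% of all probe sets were called lower. On day 20 against day 14 the difference was -2.60 ± 0.31, and on day 35 against day 0 it was -3.02 ± 0.31 (adjusted p = 3.59e-08). Within days 0 to 14 fitted by themselves the day means of Eng ranged over only 0.41 on the log2 scale and did not pass. In the order of its day means, the 6 days up to day 14 all lie above the 4 later days. The gap of 1.94 between these blocks is the one gap between neighbours in the order with a limma adjusted p under 0.05 (3.20e-05). That order was read from these same values, so the gap describes them and is no separate test.

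The second Eng probe set was also lower from day 18, at lower intensity, but differed from the first before and after. It had 109 and 119 on day 0, 56.6 and 62.4 on day 14, 16.6 and 6.95 on day 18, and 28.7 and 6.26 on day 35. Its difference was -1.82 ± 0.45 on day 18 against day 14 and -2.43 ± 0.45 on day 35 against day 0, both called. The call on day 18 against day 14 ended without day 18 replicate 2 (-1.47, adjusted p = 0.0577) and with values floored at the pooled median (-0.78). Within days 0 to 14 fitted by themselves its day means ranged over 0.90 (adjusted p = 0.00409), under 2-fold. Day 30 replicate 1, at 59.0 beside 14.5 for its partner, was its highest late value.

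Pecam1, Cdh5 and Esam, the adhesion genes, were all lower on day 35 than on day 0. Pecam1 had 107 and 93.8 on day 0, 63.4 and 39.95 on day 8, 18.6 and 32.9 on day 14, 7.36 and 30.9 on day 20, and 9.57 and 33.8 on day 35. Its 2 arrays of day 20 and of day 35 differ by more than 3-fold, and all late arrays lie below those of day 0. Pecam1 differed by -2.01 ± 0.44 on day 35 against day 0 (adjusted p = 0.000452), and none of the 4 shorter comparisons passed. Cdh5 averaged 185 ± 10.3 on day 0, 106 ± 17.8 on day 8, 51.1 ± 5.40 on day 14, 51.2 ± 7.54 on day 20 and 43.5 ± 9.36 on day 35. Its difference was -0.95 ± 0.29 on day 14 against day 8, with an adjusted p = 0.0292 but under 2-fold, and -0.002 ± 0.29 on day 20 against day 14. On day 35 against day 0 it was -1.92 ± 0.29 (adjusted p = 8.03e-06).

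The other Cdh5 probe set did not follow this course. It had 28.7 and 33.1 on day 0, 11.3 and 8.86 on day 20, and 31.3 and 32.1 on day 35. Its difference was 0.03 ± 0.37 on day 35 against day 0 and 1.15 ± 0.37 on day 35 against day 20 (adjusted p = 0.0192), the last a rise that ended with the floor (0.00), with array weights, and without day 20 replicate 2 or either array of day 35. Averaging both probe sets gave Cdh5 -0.94 on day 35 against day 0, under the 2-fold limit.

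Esam had 142 and 176 on day 0, 89.7 and 119 on day 8, 92.0 and 77.7 on day 14, 43.9 and 30.8 on day 18, 55.8 and 43.3 on day 20, 42.5 and 49.1 on day 30, and 30.4 and 27.5 on day 35. All 8 arrays from day 18 lie below all 12 earlier ones. It differed by -1.05 ± 0.24 on day 18 against day 14 (adjusted p = 0.00225) and by -2.18 ± 0.24 on day 35 against day 0 (adjusted p = 1.17e-07). The call on day 18 against day 14 ended without day 14 replicate 1 (-0.93) or day 18 replicate 2 (-0.84), and with the 40th percentile as the constant (-0.86).

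Vwf was the only gene of the 10 called lower both on day 8 against day 0 and on day 18 against day 14. Esam, Pecam1, Tek and Eng were also lower in both, without both being called. For Vwf the arrays had 85.6 and 104 on day 0, 27.7 and 40.3 on day 3, and 27.3 and 25.8 on day 6. They had 31.2 and 32.2 on day 8, 42.5 and 35.6 on day 10, and 26.2 and 25.7 on day 14. They had 5.30 and 3.54 on day 18, 5.22 and 4.84 on day 20, 25.9 and 7.70 on day 30, and 5.74 and 9.93 on day 35. Both arrays of day 0 lie above all 18 later ones, and the arrays of days 18 and 20 lie below all earlier ones. On day 8 against day 0 the difference was -1.37 ± 0.36 (adjusted p = 0.0117), the only call among the 10 genes in that comparison, where 2.42% of all probe sets were called lower. This call ended without day 0 replicate 2 (-1.24) or either array of day 8 (-1.35 and -1.38). On day 18 against day 14 Vwf differed by -1.47 ± 0.36, on day 20 against day 14 by -1.39 ± 0.36 (adjusted p = 0.00316), and on day 35 against day 0 by -2.72 ± 0.36. The values of days 18 and 20 are below 7.84, the constant in log2(intensity + 7.84), so the size of these differences depends on it. With values floored at the pooled median the differences on day 18 and on day 20 against day 14 were 0.00, and that on day 35 against day 0 was -1.45 and still called.

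Tek and Tie1, the angiopoietin receptor and its partner, were highest on day 0. Of the 5 comparisons, both passed on day 35 against day 0 alone, and Tek also passed over the time course. Tek averaged 89.3 ± 6.02 on day 0, 57.3 ± 0.452 on day 3, 48.9 ± 6.52 on day 6, 41.2 ± 9.71 on day 8 and 39.5 ± 0.351 on day 14. It then had 23.1 ± 9.87 on day 18, 31.3 ± 1.98 on day 20, 42.7 ± 2.63 on day 30 and 27.7 ± 5.05 on day 35. Both arrays of day 0 lie above all later ones. Tek differed by -0.999 ± 0.28 on day 8 against day 0 (adjusted p = 0.0172), just under the 2-fold limit, and by -1.46 ± 0.28 on day 35 against day 0 (adjusted p = 0.000106). Day 14 against day 8, day 20 against day 14 and day 35 against day 20 gave -0.04, -0.28 and -0.15, each with an SE of 0.28, and none passed.

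Tie1 had 46.4 and 45.9 on day 0 and between 5.32 and 34.8 on the later arrays. It was above the 40th percentile on both arrays of day 0 and of day 10 only. The difference was -1.18 ± 0.45 on day 8 against day 0 (adjusted p = 0.0917). On day 35 against day 0 it was -1.19 ± 0.45 (adjusted p = 0.0262), but the arrays of day 35 had 5.32 and 34.8. Without the first of these the difference was -0.34 (adjusted p = 0.517). The call also ended without either array of day 0, when the fit held the 4 arrays of both days by themselves (adjusted p = 0.0965), and with the floor (-0.41).

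The stretch before the annotated start of Eng, of Tie1 and of Vegfa is shown because these are the genes of the 10 for which the table used here holds a promoter outside all annotated transcripts. The sequences come from RefSeq on build GRCm38.p6, and each is the 250 bases before the start, 5′ to 3′ on the strand of the gene. Capitals mark matches to GGAA or, on the other strand, TTCC, the core bound by ETS factors such as Erg and Fli1, which are known regulators of endothelial genes. The Eng window is at chr2:32646345-32646594 on the + strand, the Tie1 window at chr4:118489850-118490099 on the - strand and the Vegfa window at chr17:46032378-46032627 on the - strand.
Eng: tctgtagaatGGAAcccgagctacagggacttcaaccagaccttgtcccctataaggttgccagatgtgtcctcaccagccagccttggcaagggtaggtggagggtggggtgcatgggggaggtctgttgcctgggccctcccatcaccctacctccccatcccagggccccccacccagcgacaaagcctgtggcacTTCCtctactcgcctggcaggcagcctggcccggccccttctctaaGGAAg
Tie1: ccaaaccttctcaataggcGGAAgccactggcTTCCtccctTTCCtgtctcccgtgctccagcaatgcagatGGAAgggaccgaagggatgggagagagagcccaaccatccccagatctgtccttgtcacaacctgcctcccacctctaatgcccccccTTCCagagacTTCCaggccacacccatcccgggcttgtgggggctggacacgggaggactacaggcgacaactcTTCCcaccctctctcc
Vegfa: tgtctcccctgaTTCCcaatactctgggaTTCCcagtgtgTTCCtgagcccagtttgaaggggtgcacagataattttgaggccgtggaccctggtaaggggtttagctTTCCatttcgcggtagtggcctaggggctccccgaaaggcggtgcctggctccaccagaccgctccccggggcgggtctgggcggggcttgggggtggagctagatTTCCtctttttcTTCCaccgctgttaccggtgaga
Eng holds 3 matches, Tie1 holds 7 and Vegfa holds 6. The motif is short: 93.4% of 32851 promoter windows of this length hold at least 1 match, with a median of 3. ACGTG, the core of hypoxia response elements, searched on both strands, is in none of these 3 windows and in 16.6% of all windows. A second Vegfa window in the table, inside the annotated gene and not shown, holds 1 match to it and 2 to GGAA. A match or its absence describes these letters only.

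Of the VEGF-A receptors, Kdr, and Flt1 by its probe set with the highest mean, had other courses. Kdr had 89.6 and 115 on day 0, 37.9 and 61.8 on day 3, 74.8 and 74.1 on day 6, 64.4 and 59.0 on day 8, 59.6 and 38.0 on day 10, and 28.5 and 28.8 on day 14. It had 65.0 and 62.5 on day 18, 42.2 and 55.4 on day 20, 85.9 and 104 on day 30, and 65.0 and 49.2 on day 35. The arrays of day 14 were the lowest of all, those of day 30 overlapped those of day 0, and all 20 arrays lay above the 40th percentile. Kdr differed by -0.93 ± 0.26 on day 14 against day 8 (adjusted p = 0.0154) and by -0.76 ± 0.26 on day 35 against day 0 (adjusted p = 0.0140), both under 2-fold. On day 20 against day 14 the difference was 0.63 ± 0.26 (adjusted p = 0.0538).

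Day 30 was set against day 14 for Kdr after its values were seen. Day 14 was its lowest day and day 30 its highest after day 0. Kdr had 85.9 and 104 on day 30, against 28.5 and 28.8 on day 14, a difference of 1.49 ± 0.26 (limma adjusted p = 4.63e-05), where 24.2% of all probe sets were called higher. In the same comparison Eng differed by -2.73 ± 0.31 and Vegfa by -2.20 ± 0.28, both called lower as 23.1% of all probe sets were. The second probe sets of these genes gave -0.80 (Eng) and 0.05 (Vegfa), and neither was called. The value for Kdr stayed between 1.12 and 1.67 in all alternatives. Each of them kept the same choice of days, so the comparison describes these values and is no separate test. The comparison spans the days at which the low values stepped up. Within days 18 to 35 fitted by themselves the day means of Kdr ranged over 0.83 on the log2 scale and did not pass (adjusted p = 0.114).

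The 4 Flt1 probe sets disagreed. The one with the highest mean had 17.9 and 17.9 on day 0, 34.4 and 25.2 on day 10, 40.1 and 8.56 on day 30, and 22.0 and 15.4 on day 35. Its day means ranged over 0.66 on the log2 scale, and it passed no test (time course adjusted p = 0.788). A second had 31.8 and 42.7 on day 0, 30.6 and 35.7 on day 10, and 9.82 and 11.1 on day 35, a difference of -1.29 ± 0.46 on day 35 against day 0 (adjusted p = 0.0190). Another probe set had 47.4 and 51.8 on day 0, 21.5 and 26.3 on day 8, 11.5 and 4.79 on day 14, and 2.73 and 4.09 on day 35, a difference of -2.35 ± 0.47 (adjusted p = 0.000178). That probe set rose on day 30 against day 20, by 1.25 ± 0.47, with 38.4 and 11.1 on day 30 against 2.99 and 6.47 on day 20, and without day 30 replicate 1 this difference was 0.61 and not called. The call was lost under 21 of 34 alternatives, the floor (0.08) among them. The last had 2.26 to 21.5 and exceeded the 40th percentile on no array. Of the 4, therefore, 2 fell, 1 passed no test and 1 was too low to test. The call of the second on day 35 against day 0 ended without day 0 replicate 2 and without either array of day 35, and with the floor it stood at -0.15. The floor also ended the call of the other falling probe set (-0.52).

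Vegfa, the ligand, had its lowest day means on days 30 and 35. The arrays had 85.4 and 97.9 on day 0, 98.2 and 94.5 on day 3, 109 and 68.0 on day 6, 89.1 and 103 on day 8, 84.7 and 80.3 on day 10, and 66.3 and 76.9 on day 14. They had 74.6 and 40.8 on day 18, 39.6 and 43.8 on day 20, 9.51 and 9.36 on day 30, and 9.26 and 5.14 on day 35. All 4 arrays of days 30 and 35 lie below all earlier ones. The difference was 0.06 ± 0.28 on day 8 against day 0 and -0.38 ± 0.28 on day 14 against day 8. It was -0.68 ± 0.28 on day 20 against day 14 (limma adjusted p = 0.0497), under 2-fold and not called. Day 20 lay 1.07 below day 3 (limma adjusted p = 0.00255), but day 3 was picked from these values as the highest day. On day 30 Vegfa averaged 9.43 ± 0.10, against 41.7 ± 2.94 on day 20, a difference of -1.52 ± 0.28 (adjusted p = 2.00e-04), where 6.34% of all probe sets were called lower. This call ended with the floor (-0.27) and with the mean of both probe sets (-0.63), the second alone giving 0.25 ± 0.41. On day 35 against day 20 it was -1.73 ± 0.28 (adjusted p = 4.58e-05) and on day 35 against day 0 it was -2.74 ± 0.28 (adjusted p = 2.67e-08). With the floor at the pooled median the difference on day 35 against day 20 was -0.27 and not called, since both days lie near or under that floor, and that on day 35 against day 0 was -1.40 and called.

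The second Vegfa probe set was lower and less clear. It had 21.8 and 7.16 on day 0, 31.4 and 34.2 on day 10, 13.8 and 9.50 on day 20, and 6.57 and 13.1 on day 35. It differed by -0.16 ± 0.41 on day 35 against day 20 and by -0.28 ± 0.41 on day 35 against day 0, and neither passed. The mean of both probe sets differed by -0.95 on day 35 against day 20, under the 2-fold limit, and by -1.51 on day 35 against day 0, past it.

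**Figure D2:**
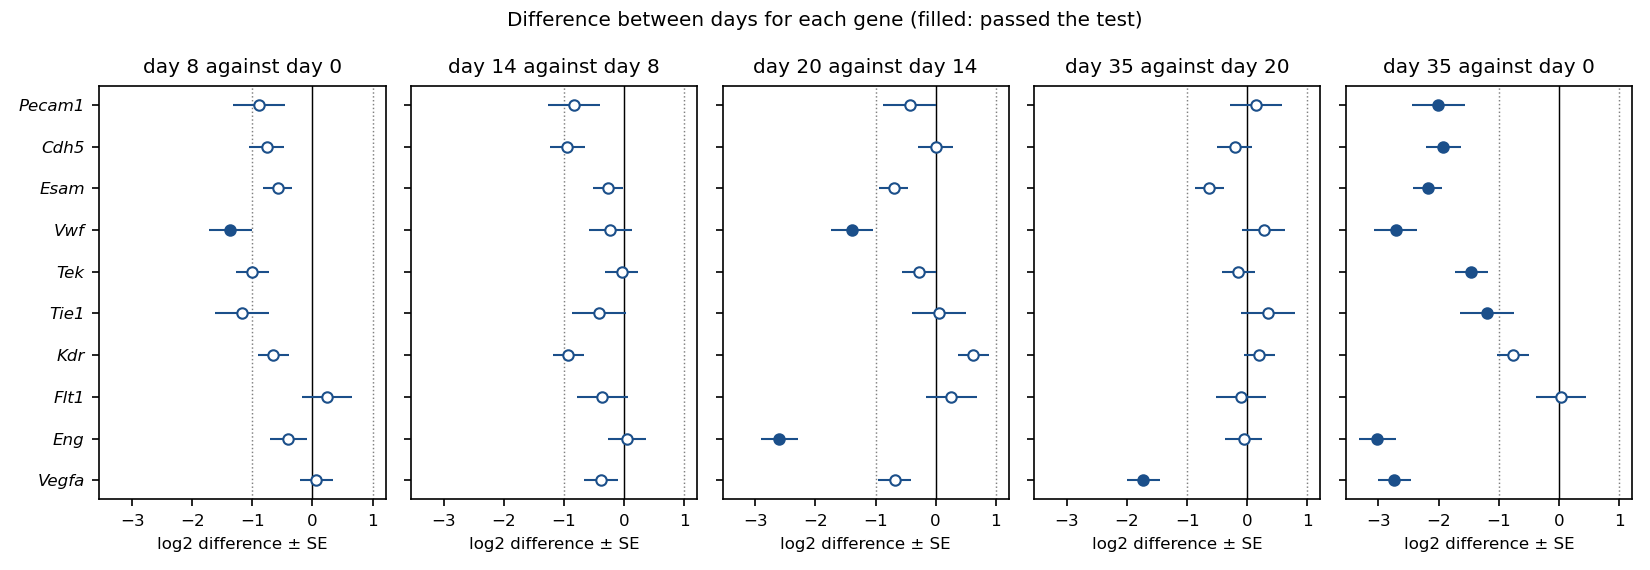
Log2 difference between days, later minus earlier (x axis, points with SE bars), for each of the 10 genes (rows) in 5 comparisons (panels). Filled points passed the test and dotted lines mark 2-fold. Vwf alone passed on day 8 against day 0, Vwf and Eng on day 20 against day 14, Vegfa alone on day 35 against day 20, and 8 genes on day 35 against day 0.

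Across the shorter comparisons few of the 10 genes passed. On day 8 against day 0 the higher calls were 0 of 10 genes and 2.45% of all probe sets. On day 14 against day 8 limma called none of the 10, where 2.10% of all probe sets were called lower and 3.86% higher. Cdh5 and Kdr had an unadjusted p under 0.05 there, 2 of 10 genes, and both also had an adjusted p under 0.05 but missed the fold limit. On day 20 against day 14 Vwf and Eng were lower, 2 of 10 genes, where 12.0% of all probe sets were called lower and 14.7% higher. Vegfa was lower on day 35 against day 20, 1 of 10, where 7.28% of all probe sets were called lower and 6.71% higher. No gene of the 10 was called higher in any of these comparisons. Of the 90 steps of the 10 genes between neighbouring days, 4 passed: Eng, Vwf and Esam on day 18 against day 14, and Vegfa on day 30 against day 20. Over all probe sets 5.15% were called lower and 11.7% higher at the first of these steps, and 6.34% and 8.26% at the other. At the remaining 7 steps no gene of the 10 passed, and few probe sets did: 0.220% lower and 0.0885% higher on day 3 against day 0, 0.271% and 0.898% on day 6 against day 3, and 0.0456% and 0.0939% on day 8 against day 6. Further on these shares were 0.244% lower and 0.357% higher on day 10 against day 8, and 0.477% and 2.64% on day 14 against day 10. They were 0.939% and 1.58% on day 20 against day 18, and 1.80% and 0.636% on day 35 against day 30.

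The log2 day means of the endothelial genes resembled each other to different degrees, given here as correlations over the 10 days, which share arrays and scaling. Vwf and Esam had r = 0.93, Vwf and Tek 0.92 and Vwf and Pecam1 0.91. Vegfa was closest to Eng (0.87). Kdr was closest to Tek, at 0.38 only, and had -0.20 with Vegfa. Flt1, by its probe set with the highest mean, exceeded 0.25 with no other gene of the 10. That probe set had a mean level of 4.83 and was above the 40th percentile on 9 arrays. The r of Flt1 does not cover its 2 other tested probe sets, with mean levels of 4.70 and 4.61. These were above that percentile on 11 arrays each and were called lower on day 35 against day 0 (-1.29 and -2.35). Among 24167 other probe sets of named genes whose day means spanned at least 2-fold, the courses nearest to Eng were those of Ncaph2, Cldnd1 and Myo7a (r = 0.998, 0.994 and 0.994). Nearest to Vegfa were Ergic2, Luc7l3 and Trpm7 (0.997, 0.997 and 0.996), and nearest to Kdr were Arhgef10l, Foxp4 and Gpha2 (0.930, 0.906 and 0.897). Nearest to Vwf were Slc6a6, Ehd2 and Smc2 (0.981, 0.962 and 0.953), and nearest to Tek were Dusp7, Prkab1 and Syngr1 (0.952, 0.949 and 0.945). Pecam1 was nearest to Sfrp1, Nox4 and Tril (0.985, 0.983 and 0.980), Cdh5 to Adh1, Pkp2 and Wfikkn2 (0.987, 0.986 and 0.986), and Esam to Kcna5, Parp4 and Slc9a3r2 (0.976, 0.972 and 0.971). For Tie1 (Msi2, Plcxd3 and Maoa) and Flt1 (Ksr1, Mtmr7 and Sema4d) the nearest courses had r between 0.862 and 0.912. Neither of these 2 genes passed over the time course by its probe set with the highest mean. All nearest courses were picked by their r among the 24167, so high values follow in part from the choice.

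Other genes of vessel growth were described by 7 lists holding 85 tested genes, chosen with earlier results of these data known. On day 35 against day 0, 28.1% of all probe sets were called lower and 22.9% higher. By day 35, against day 0, 5 of 7 VEGF family ligands, receptors and co-receptors were lower and none higher, with a median of -2.05. Nrp1, a co-receptor of VEGF-A, averaged 93.7 ± 14.8 on day 35, against 636 ± 68.5 on day 0 (-2.67 ± 0.15). Vegfb, a ligand of VEGFR1, averaged 27.3 ± 19.7, against 150 ± 9.94 (-2.29 ± 0.31). Of the angiopoietins and related genes 3 of 6 were lower: Angpt1, the ligand that activates TIE2, averaged 9.32 ± 1.57 on day 35, against 51.1 ± 8.46 on day 0 (-1.78 ± 0.42), and it was already lower on day 8, at 8.42 ± 4.68 (-1.88 ± 0.42 against day 0). Angptl4, an inhibitor of lipoprotein lipase, differed by -2.26 ± 0.19.

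Of 12 genes of the hypoxia response 6 were lower and 2 higher on day 35 than on day 0. Over all probe sets 28.1% were called lower and 22.9% higher in that comparison. Hif1a, whose protein switches on Vegfa in low oxygen, averaged 216 ± 31.1 on day 35, against 1650 ± 135 on day 0 (-2.89 ± 0.09). It averaged 200 ± 8.34 on day 20, against 801 ± 8.41 on day 14, a difference of -1.96 ± 0.09. Hif3a differed by -3.48 ± 0.33. The 2 that rose were Egln2, an oxygen-sensing hydroxylase (2.13 ± 0.10), and Adm, adrenomedullin (1.94 ± 0.43), named because they went the other way. On day 20 against day 14, 7 of the 12 were lower and 1 higher, where 12.0% of all probe sets were called lower and 14.7% higher.

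Among 25 other endothelial surface and junction genes 17 were lower and 1 higher on day 35 than on day 0, with a median of -1.60. The shares over all probe sets were 28.1% lower and 22.9% higher. Aplnr, the apelin receptor of growing vessels, had the largest difference in the lists: 25.9 ± 15.6 on day 35, against 1103 ± 113 on day 0 (-5.12 ± 0.26). It averaged 240 ± 9.95 on day 3. Cd93 averaged 35.2 ± 6.27, against 408 ± 60.1 (-3.27 ± 0.16). Apln, the apelin ligand, was the 1 that rose (1.46 ± 0.16). On day 20 against day 14, 10 of the 25 were lower and none higher. The shares over all probe sets there were 12.0% lower and 14.7% higher.

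Of 16 endothelial transcription factors 8 were lower and 3 higher on day 35 than on day 0, where 28.1% of all probe sets were called lower and 22.9% higher. Ets1 differed by -2.85 ± 0.43 and Ets2 by -2.81 ± 0.17, both ETS factors. The 3 that rose were Etv2 (2.22 ± 0.31), Klf4 (1.59 ± 0.10) and Lyl1 (1.16 ± 0.25), named after their values were seen, and Klf4 is also known from round spermatids. Of 9 genes of endothelial TGF beta and BMP signalling, the pathway of Eng, 5 were lower and 2 higher. Bmpr2 averaged 144 ± 7.53 on day 35, against 1106 ± 54.7 on day 0 (-2.88 ± 0.10), and Tgfbr2 differed by -2.45 ± 0.13. Smad6 (1.17 ± 0.21) and Gdf2 (1.31 ± 0.43) rose. Of 10 Notch and ephrin genes 5 were lower and none higher, led by Jag1 (-2.62 ± 0.21) and Efnb2 (-2.31 ± 0.31). Many of these genes are also expressed outside vessels.

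**Figure D3:**
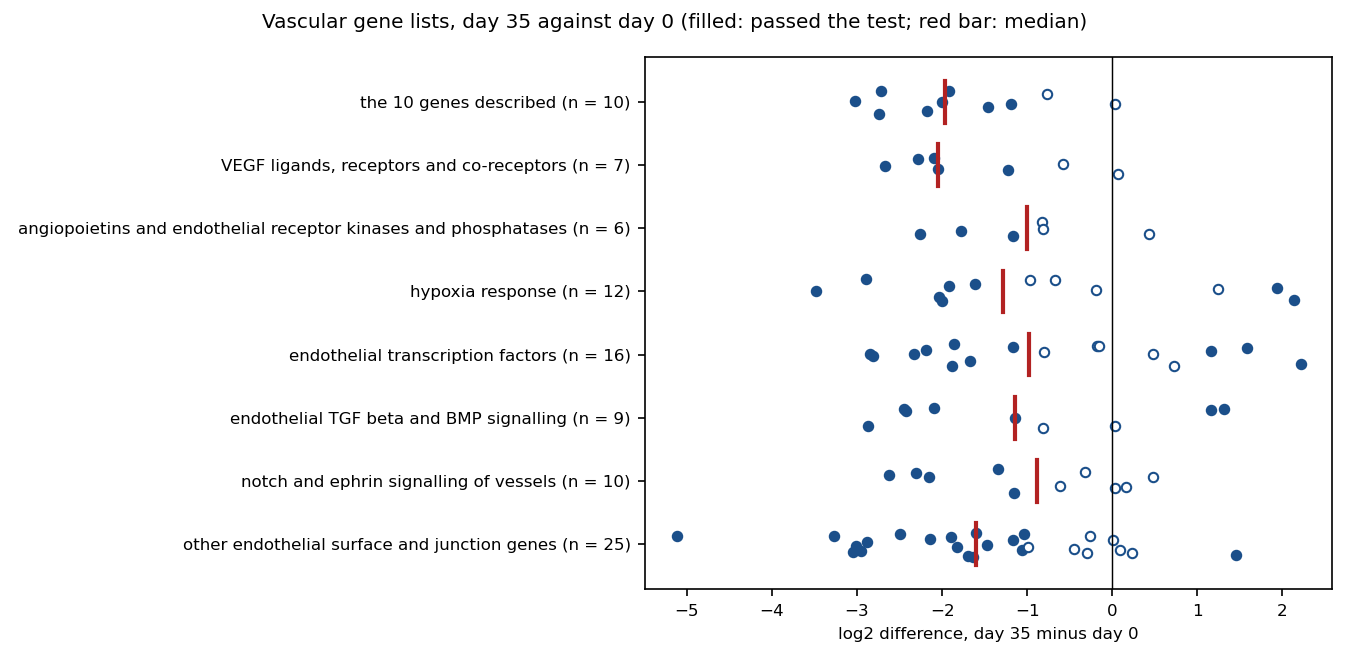
Log2 difference on day 35 against day 0 (x axis) for the 10 genes described and for each tested gene of 7 vascular lists (rows). Filled points passed the test and red bars are medians. The median is -1.96 for the 10 genes and -2.05 for the VEGF family, and Aplnr, at -5.12, is the point farthest left.

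Over the shorter spans the calls in 2 of the lists were as follows, named after their values were seen. On day 8 against day 0, 2 of 7 VEGF family genes were lower, Pgf (-1.99 ± 0.47) and Vegfd (-1.70 ± 0.23), and 2 of 25 endothelial surface genes, Aplnr (-2.60 ± 0.26) and Clec14a (-1.39 ± 0.38). Of all probe sets 2.42% were called lower there. On day 14 against day 8, 1 of the 25 was lower, Jam2 (-1.02 ± 0.14), where 2.10% of all probe sets were. Vegfb was the 1 VEGF family gene lower on day 20 against day 14, at 14.1 ± 2.79 on day 20, against 86.2 ± 13.4 on day 14 (-2.10 ± 0.31). In that comparison 12.0% of all probe sets were called lower. Later, on day 35 against day 20, 3 of the 25 were lower, Thbd (-1.62 ± 0.14), Cd34 (-1.59 ± 0.13) and Calcrl (-1.09 ± 0.36), and Nrp1 was the 1 of the VEGF family genes called (-1.50 ± 0.15). The share of all probe sets called lower there was 7.28%.

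Markers of other cells moved over the same days. Meiotic and post-meiotic germ cell genes, 8 in all, had summed intensities of 352 to 369 on day 0, 6129 to 6775 on day 14, 14040 to 14260 on day 20 and 35780 to 39890 on day 35. Their part in the lower values of the vascular genes was not tested. All 7 pericyte genes, which mark the cells that wrap capillaries, were lower on day 35 than on day 0. Their sums were 234 to 268 on day 35, against 1260 to 1471 on day 0. Over all probe sets 28.1% were called lower and 22.9% higher in that comparison. The sum of 5 Leydig cell genes was 3450 to 4770 on day 35, against 8457 to 8738 on day 0, and that of 6 peritubular myoid genes 1826 to 2020, against 4425 to 4565. Of 8 Sertoli cell genes 4 were lower and 3 higher, and their sum averaged 5179 on day 35, against 9688 on day 0. The Leydig, myoid and Sertoli sums did not fall throughout. The Leydig sum averaged 2443 on day 20 and 4352 on day 30. The myoid sum averaged 6833 on day 8 and the Sertoli sum 12370 on day 10, both above day 0.

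Pecam1, Tek and Eng are also known from blood cells and Vwf from platelets. Of 6 platelet and megakaryocyte genes, 2 were higher on day 35 than on day 0, where 22.9% of all probe sets were, and none was lower, with sums of 342 to 439 on day 35, against 256 to 294 on day 0. Of 9 genes of macrophages and other leukocytes, 3 were higher and none was lower, with sums of 908 to 991 on day 35, against 513 to 555 on day 0 and 1639 to 2067 on day 14. The leukocyte sum averaged 1491 on day 20 and 949 on day 35, and Pf4 made up most of the platelet sum on day 8. The part of blood cells in the values of Vwf, Pecam1, Tek and Eng was not tested. Lymphatic endothelial genes had 2 of 5 lower and 1 higher, where 28.1% of all probe sets were called lower and 22.9% higher. Their sums were 357 to 358 on day 35, against 694 to 700 on day 0, and averaged 1026 on day 8. Pdpn, which other testis cells also express, gave most of the sum. Of 5 red blood cell genes 2 were tested and 1 was lower. Their sums were 67.6 to 108 on day 35, against 212 to 234 on day 0, and 18.9 to 40.7 on day 8. Alas2 gave nearly all of the sum of day 0, averaging 217.5. Hba-a1, the other gene, averaged 5.51 on day 0 and 5.92 on day 8. Whether blood held in the vessels at birth bears on the fall of Vwf by day 8 was not tested. No listed marker with a probe set was at 0 on all arrays.

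**Figure D4:**
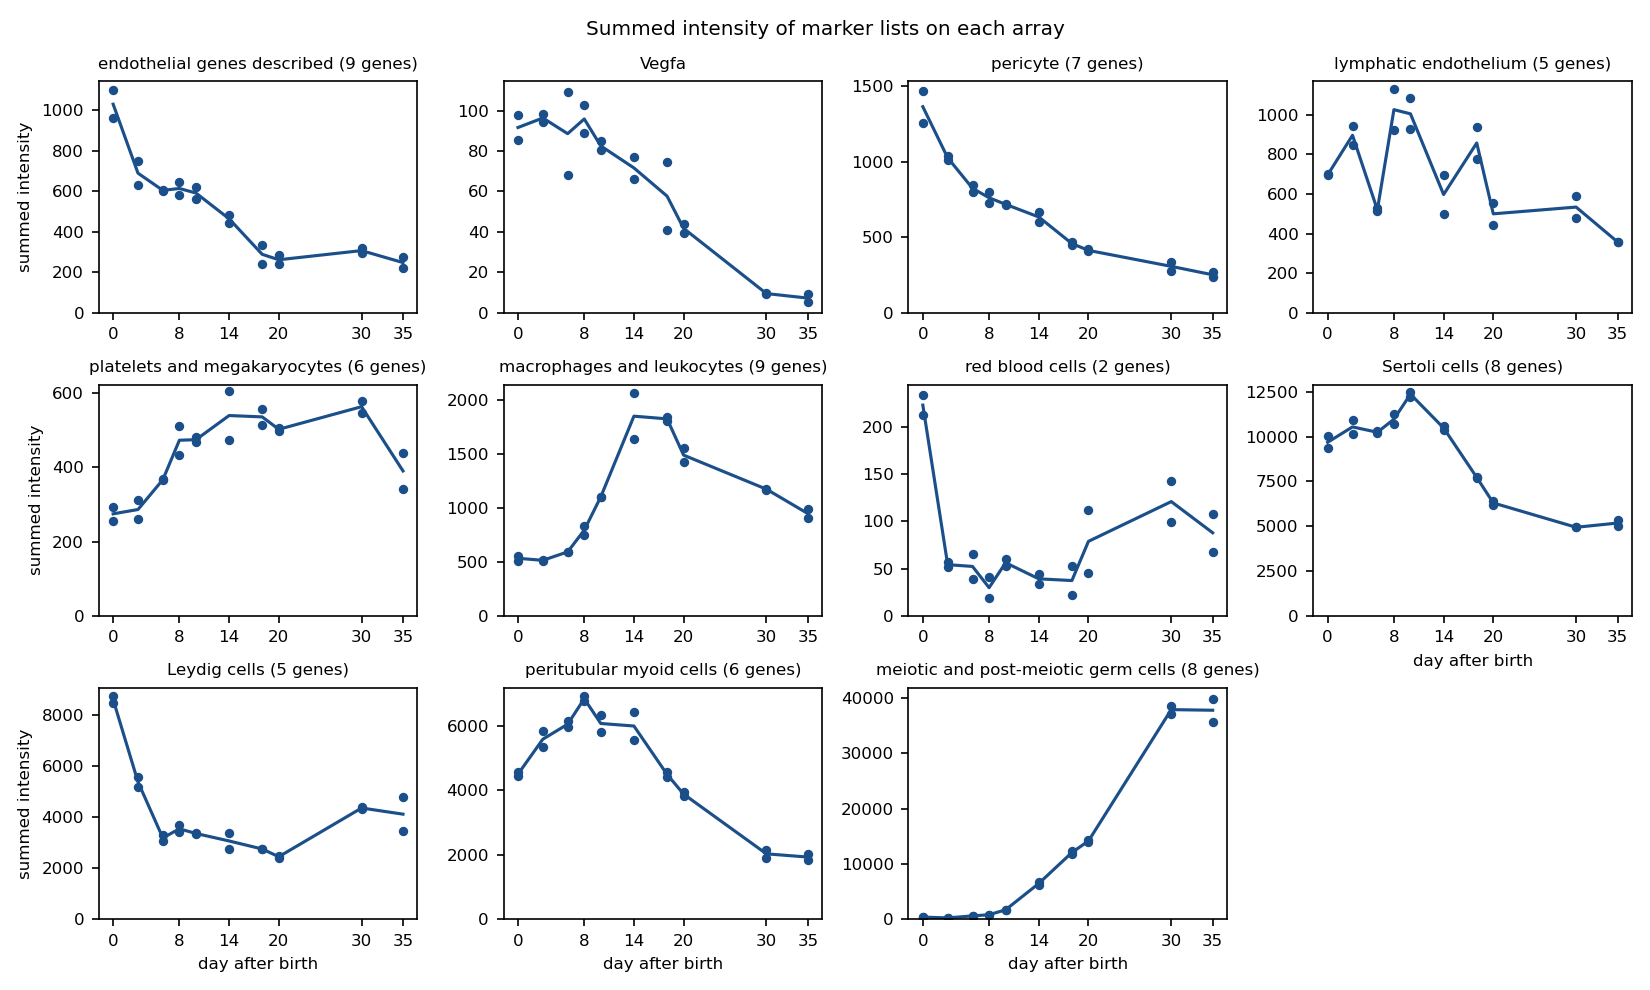
Summed intensity (y axis, linear) of the 9 endothelial genes, of Vegfa and of 9 lists of marker genes of other cells against day after birth (x axis); points are arrays and lines join day means. The endothelial sum is 248 on day 35, against 1030 on day 0, the pericyte sum 251, against 1365, and the germ cell sum 37830, against 361.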

How the data were processed

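Probe set intensity values were deposited by the authors on a linear scale, per the file itself, with a trimmed mean equal on all 20 arrays; no source used here names the summarising software. Groups are the days in the sample titles. From the deposited intensities, log2(intensity + 7.84) was computed, 7.84 being the 20th percentile over all arrays. The 37292 probe sets above an array's 40th percentile on at least 2 arrays were tested, without 64 control probe sets. limma 3.58.1 in R 4.3.3 was fitted to all 20 arrays with 1 mean per day (10 residual degrees of freedom), and limma's p-values were adjusted by Benjamini-Hochberg over all probe sets tested. The number of arrays limits precision. Genes were named from the platform annotation. Members and lists were chosen with earlier results of these data known. Named from each list were the 2 genes with the largest difference on day 35 against day 0, others after their values were seen, and for each member the 3 genes with the nearest course. Alternatives changed the scaling, constant, floor, filter, probe set rule, model, threshold and arrays. The fit was tested on simulated data.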

Additional observations from a re-analysis of the deposited data

How the results depend on the processing

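Of 3226 values for single genes and probe sets under an alternative, 3092 stayed on their side of the threshold, 93 lost a call and 41 gained one. Of these values 1860 left out 1 array, for comparisons of 2 days mostly an array of another day. The share that stayed is therefore no measure of how firm a call is. Of values never called 44 changed sign, and none that was called did. On day 35 against day 0 the 8 genes called lower stayed at 7 to 8 when single arrays were left out, and the time course at 8 to 9 genes. Day 18 to 35 arrays fitted by themselves, an alternative chosen after seeing the data, left 1 gene called over time. On day 8 against day 0, 1 gene was called lower. It was 2 with the 5th percentile constant, the floor, array weights, the compared days by themselves or no fold limit, 0 at an adjusted p under 0.01, and 3 with days 0 to 14 by themselves, also chosen after seeing the data. Leaving out arrays gave 0 to 3. On day 14 against day 8 no gene was lower, against 1 with a common median or the floor and 2 with the 5th percentile constant or no fold limit. On day 20 against day 14, 2 were lower, against 1 with the 40th percentile constant or the floor and 4 with no fold limit. On day 35 against day 20, 1 was lower, against 0 with the floor or the mean of a gene's probe sets, and 0 to 1 were higher when arrays were left out, the 1 being Tie1 (1.20 without day 35 replicate 1). Of the steps, 0 were higher, against 1 with the 5th percentile constant and 2 with no fold limit, and 0 to 1 when arrays were left out, while the lower calls were 3 to 6. The cause of these shifts was not tested. A day left with 1 array was assumed to vary like the others. Vegfa on day 30 against day 20 lost its call with the floor (-0.27) and the mean of its probe sets (-0.63), and Vwf on day 18 and on day 20 against day 14 with the 40th percentile constant (-0.87 and -0.84). The median of all probe sets on day 35 against day 0 was -0.13, and -0.25 with a common median.

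Replicate numbers did not pair the arrays: across 45 pairs of days the correlation of same-numbered deviations was -0.027 to 0.091. With the replicate number as a block, 8 genes were lower on day 35 against day 0 and 8 passed over time, as without it, and the block changed no count of calls among the 10 genes. Values near the background limit what can be said of late Vwf, Tie1, Flt1 and Vegfa levels.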
